A study of Mus musculus with 6 samples.

Results

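The metallothioneins and the zinc-handling genes described here are 7 of the 32285 genes in the deposited matrices: Mt1, Mt2, Mt3, Mtf1, Slc30a1, Slc30a3 and Slc39a14. They were matched by gene symbol, and they had been chosen with earlier values of sevoflurane against oxygen in these same libraries known. Their differences between the groups are therefore given as descriptions, with no p-value. Where a member is said to be called (adjusted p under 0.05 in the fit over all genes), this only places it in that fit, and nothing is read from it. Metallothioneins are small cysteine-rich proteins that bind zinc and copper. The zinc-sensing transcription factor Mtf1 drives Mt1, Mt2 and Slc30a1 through metal response elements when free zinc rises, and glucocorticoids also induce Mt1 and Mt2. In the hippocampus, zinc is concentrated in the synaptic vesicles of glutamatergic terminals, above all in the mossy fibres of dentate granule cells.

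Nuclei came from frozen hippocampi of mice aged 18 to 20 months. For 3 libraries the mice had inhaled the anaesthetic sevoflurane at 2% with 60% O2 over 6 h (flow 1 L/min). The 3 control libraries came from mice given 60% O2 without sevoflurane, with duration and flow unchanged. The labels give no strain and do not state the number of animals behind each library, so any p-value measures the spread between libraries only. The libraries held 61398346 to 72636984 unique molecular identifiers (UMIs, counted RNA molecules) after sevoflurane and 56334621 to 70077201 after oxygen.

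After filtering, 51892 nuclei remained, and 326 barcode sequences occurred in more than 1 library. Clusters were named from marker genes and are written as X-like, and the 7 genes were kept out of the genes used for clustering. Of 19 named classes, 12 held at least 20 nuclei in every library and were analysed. The cells recovered differed between the groups. Choroid plexus-like nuclei numbered 0, 0 and 0 after sevoflurane and 60, 16 and 99 after oxygen. Septal inhibitory-like nuclei numbered 166, 216 and 178 after sevoflurane and 11, 13 and 17 after oxygen. The sex labels did not all match the data. Sevoflurane replicate 1 is labelled male but held 1363 CPM (counts scaled to a fixed library total) of Xist, and both libraries labelled female, replicate 3 of each group, held at most 0.812 CPM of Xist with at least 367 CPM of Y-linked genes. Results that rest on these libraries were also computed without each of them.

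The genes lie at 5 places on mm10, with positions from GENCODE M21. Mt3, Mt2 and Mt1 stand in that order on the plus strand of chromosome 8, at chr8:94152607-94154146, chr8:94172664-94173568 and chr8:94179082-94180327, with 18518 bp between Mt3 and Mt2 and 5514 bp between Mt2 and Mt1. Mtf1 lies at chr4:124802104-124849800 and Slc30a1 at chr1:191906767-191913247, both on the plus strand. Slc30a3 lies at chr5:31086106-31108237 and Slc39a14 at chr14:70303469-70351425, both on the minus strand. Of the stretches of 50 bases in Mt2 transcripts, 45.8% also occur in Gm45774 when both strands are searched. Gm45774 overlaps Mt2 on the other strand, and whether this affects Mt2 counts was not tested. Mt1 and Mt3 shared 0 such stretches with any other gene.

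Promoter sequences of 6 of the 7 members were found in the RefSeq table (GRCm38.p6). Those of the 3 metallothioneins and of Slc30a1 are shown because Mtf1 is known to act on Mt1, Mt2 and Slc30a1, with Mt3, which is known to respond little to metals, beside them. Each runs 5′ to 3′ over 250 bases before the RefSeq start and the first 30 bases from it, on the plus strand, at chr8:94178839-94179118 for Mt1, chr8:94172368-94172647 for Mt2, chr8:94152357-94152636 for Mt3 and chr1:191906531-191906810 for Slc30a1. Capitals mark the core of the metal response element, searched as TGCACNC or TGCGCNC on both strands.
Mt1: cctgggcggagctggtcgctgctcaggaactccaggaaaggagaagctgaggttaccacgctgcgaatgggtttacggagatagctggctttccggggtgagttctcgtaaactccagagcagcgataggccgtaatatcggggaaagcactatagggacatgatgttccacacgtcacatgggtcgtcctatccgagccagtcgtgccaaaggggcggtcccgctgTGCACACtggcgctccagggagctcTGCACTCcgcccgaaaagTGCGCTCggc
Mt2: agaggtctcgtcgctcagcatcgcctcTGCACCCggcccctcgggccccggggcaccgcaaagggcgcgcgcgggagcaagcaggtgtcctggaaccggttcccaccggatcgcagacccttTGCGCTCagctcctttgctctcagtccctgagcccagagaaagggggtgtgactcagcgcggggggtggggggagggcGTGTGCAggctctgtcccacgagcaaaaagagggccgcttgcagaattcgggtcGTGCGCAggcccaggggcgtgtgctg
Mt3: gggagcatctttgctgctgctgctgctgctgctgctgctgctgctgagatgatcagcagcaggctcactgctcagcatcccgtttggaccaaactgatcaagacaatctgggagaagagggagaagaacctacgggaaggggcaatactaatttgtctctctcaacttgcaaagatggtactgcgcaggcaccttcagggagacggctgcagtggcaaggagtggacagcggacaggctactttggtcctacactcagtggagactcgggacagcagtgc
Slc30a1: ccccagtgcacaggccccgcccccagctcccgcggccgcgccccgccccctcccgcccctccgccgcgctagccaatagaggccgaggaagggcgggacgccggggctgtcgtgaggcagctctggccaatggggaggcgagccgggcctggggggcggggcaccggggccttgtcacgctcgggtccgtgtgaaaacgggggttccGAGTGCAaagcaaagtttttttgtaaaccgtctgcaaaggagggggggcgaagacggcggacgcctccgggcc

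The core occurred 3 times in the Mt1 window, 4 times in the Mt2 window, 1 time in the Slc30a1 window and 0 times in the Mt3 window. Of 27025 promoter windows of this length, 24.0% held at least 1 core and 1.75% held at least 3. The count depends on the window: over 300 bases, Mt3 held 1 core and Slc30a1 held 2, while Mt1 and Mt2 kept 3 and 4. The Mtf1 window held 0 cores, and of the 2 listed promoters of Slc30a3 1 held a single core. A match describes the letters and is not evidence of a bound site.

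Across the classes, Mt1 and Mt2 stood highest in endothelial-, ependymal- and astrocyte-like nuclei. Among classes where they passed the filter on low counts, their fold changes of sevoflurane over oxygen were largest in endothelial-like nuclei. Mt2 did not pass it in CA2 pyramidal-like nuclei. There it averaged 0.237 UMIs per nucleus after sevoflurane (0.078 to 0.38) and 0.066 after oxygen (0.058 to 0.075). Levels in CPM depend on how much other RNA a nucleus holds, so UMIs per nucleus are given as well. A cluster of 4529 barcodes with a median of 792 UMIs was left unnamed. Its leading genes were the choroid plexus transcript Ttr, short housekeeping transcripts and the interneuron transcript Sst. Of the 11 inhibitory markers, 7 passed in it. It serves as a measure of the RNA found in droplets with little RNA of their own, since empty droplets were not analysed here. It may hold damaged nuclei or shallow inhibitory nuclei too.

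In this few-UMI cluster, Mt1 averaged 0.540, 0.512 and 0.433 UMIs per barcode after sevoflurane and 0.369, 0.264 and 0.368 after oxygen. In the 9 classes other than endothelial-, ependymal- and astrocyte-like, class means of Mt1 ran between 0.456 and 0.681 UMIs per nucleus after sevoflurane and between 0.311 and 0.406 after oxygen. Neuronal, oligodendrocyte-lineage and microglia-like nuclei thus held about as many Mt1 UMIs as the few-UMI cluster, although they held more RNA. Taking single libraries, the ratio to the few-UMI cluster ran from 0.80 to 1.95 for Mt1, from 0.497 to 2.62 for Mt2 and from 0.787 to 2.18 for Mt3 in these 9 classes. These 9 classes are called near background below, as a description of these ratios and not of where the UMIs came from. Mt3 stood above the few-UMI cluster in 6 of 6 libraries in dentate granule-, CA1, CA2 and CA3 pyramidal- and inhibitory-like nuclei, by 1.14 to 1.58 times on average. Mt1 did so in dentate granule-, oligodendrocyte- and CA3 pyramidal-like nuclei, by 1.07 to 1.22 times on average.

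**Figure D1:**
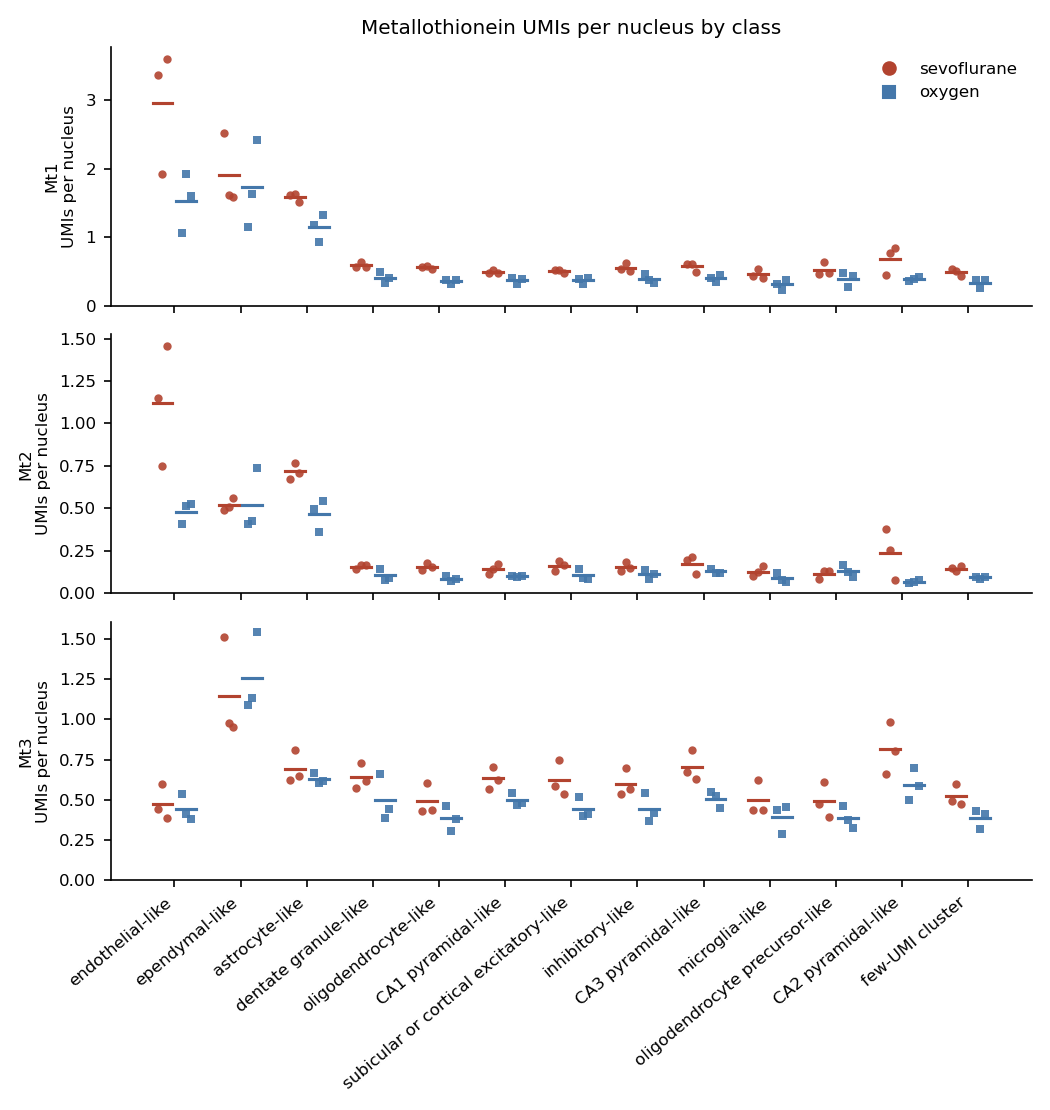
UMIs per nucleus of Mt1, Mt2 and Mt3 in each class and in the few-UMI cluster. Each point is a library, sevoflurane left (circles) and oxygen right (squares), and lines are means of 3 libraries. For Mt1 and Mt2, endothelial-, ependymal- and astrocyte-like nuclei stand above the few-UMI cluster in 6 of 6 libraries, while the other classes lie near it.

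The proportion of Mt1 to Mt3 also varied between classes. Mt1 UMIs per Mt3 UMI averaged 0.954 after sevoflurane and 0.857 after oxygen in the few-UMI cluster. In the 9 classes near background its means ran from 0.780 in CA1 pyramidal-like to 1.16 in oligodendrocyte-like nuclei after sevoflurane, and from 0.668 in CA2 pyramidal-like to 1.02 in oligodendrocyte precursor-like nuclei after oxygen. In CA1 pyramidal-like nuclei it lay wholly below the few-UMI cluster in both groups, at 0.738 to 0.837 after sevoflurane and 0.665 to 0.815 after oxygen, against 0.857 to 1.09 and 0.828 to 0.888 in the few-UMI cluster. In ependymal-like nuclei it averaged 1.66 after sevoflurane and 1.35 after oxygen. In astrocyte-like nuclei it averaged 2.31 after sevoflurane and 1.81 after oxygen. In endothelial-like nuclei it averaged 6.71 after sevoflurane and 3.58 after oxygen. The source of the metallothionein UMIs in the other classes was not tested.

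Mt1 in endothelial-like nuclei reached 728, 507 and 810 CPM in the sevoflurane libraries, against 250, 375 and 374 CPM in the oxygen libraries. Every sevoflurane library lay above every oxygen library, and the log2 fold change of sevoflurane over oxygen was 1.04 (standard error, SE, 0.21). Per nucleus, this was 3.36, 1.93 and 3.61 UMIs after sevoflurane against 1.05, 1.91 and 1.60 UMIs after oxygen, and here sevoflurane replicate 2 and oxygen replicate 2 nearly met. Per nucleus, the level was 2.85 to 8.34 times that of the few-UMI cluster of the same library, whose barcodes were shallower. After thinning to equal depth, the share of endothelial-like nuclei with an Mt1 UMI averaged 39.7% after sevoflurane and 27.0% after oxygen. The few-UMI share, thinned likewise, averaged 31.9% and 26.6%. At equal depth, the libraries of the endothelial-like class and the few-UMI cluster thus overlapped after oxygen, but not after sevoflurane.

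Mt2, which encodes the second of the widely expressed metallothioneins, reached 249, 198 and 327 CPM after sevoflurane, against 96.1, 100 and 123 CPM after oxygen. The groups again did not overlap, with a log2 fold change of 1.30 (SE 0.20). The share of endothelial-like nuclei with at least 1 Mt2 UMI was 40.9% to 45.9% after sevoflurane and 25.9% to 34.0% after oxygen. In the few-UMI cluster that share was 11.2% to 14.2% after sevoflurane and 7.63% to 8.93% after oxygen. Median depth was 2905 to 3718 UMIs after sevoflurane and 2594 to 4154 after oxygen in endothelial-like nuclei, and 767 to 886 and 716 to 806 in the few-UMI cluster. With nuclei thinned to 1000 UMIs, the endothelial-like share averaged 16.7% after sevoflurane and 9.81% after oxygen, leaving out 10 and 8 shallower nuclei. Thinned in the same way, the few-UMI share averaged 10.4% after sevoflurane and 7.03% after oxygen, leaving out 1490 and 1822 shallower barcodes. The margin over the few-UMI cluster was thus smaller at equal depth.

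Mt3, the metallothionein typical of brain, did not follow Mt1 and Mt2 in this class. It measured 95.9, 157 and 87.0 CPM after sevoflurane and 127, 81.3 and 89.9 CPM after oxygen, with overlapping groups and a log2 fold change of 0.16 (SE 0.24). Its level per nucleus was 0.820 to 1.3 times that of the few-UMI cluster. After subtraction of the few-UMI level of each library, the log2 ratio of group means in endothelial-like nuclei was 1.11 for Mt1 and 1.37 for Mt2.

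**Figure D2:**
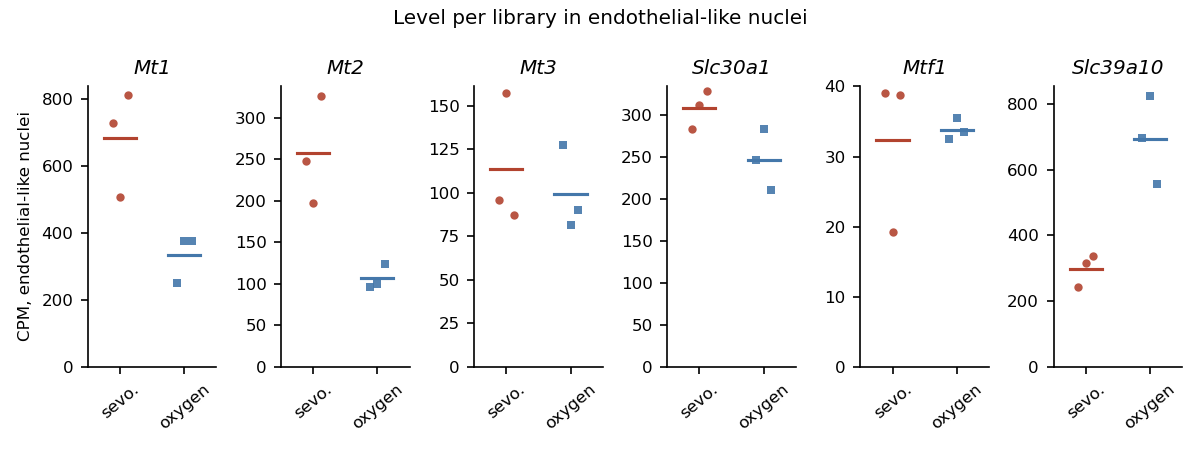
Level in CPM per library of 5 members and of Slc39a10 in endothelial-like nuclei. Points are libraries, sevoflurane left and oxygen right, lines are means of 3, and each gene has its own axis from 0. Mt1 and Mt2 lie higher in all 3 sevoflurane libraries, Slc39a10 lies lower in all 3, and Mt3 and Mtf1 overlap.

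The endothelial-like class was small, with 61 to 191 nuclei per library after sevoflurane and 94 to 168 after oxygen. It joined a cluster of 521 nuclei led by Flt1 and Adgrl4 and a cluster of 242 nuclei led by Rgs5, Flt1 and Hbb-bs. Hbb-bs is a haemoglobin transcript and Rgs5 a pericyte marker. In the smaller cluster all 9 endothelial markers passed, but Vtn, another pericyte marker, was also among the leading genes. Pericyte was its second candidate name. Mt1 averaged 582 CPM after sevoflurane and 359 CPM after oxygen in the larger cluster, and 717 and 281 CPM in the smaller. In the class as a whole 2 of the 6 members past the filter were called, Mt1 and Mt2, where 3.1% of all genes tested were; the members having been chosen on this contrast, nothing is read from that. With the larger cluster alone, the log2 fold change was 0.70 (SE 0.26) for Mt1 and 0.99 (SE 0.26) for Mt2, and neither was called at an adjusted p under 0.05. Neither was called under a stricter filter on nuclei, of at least 1000 UMIs and at most 1% mitochondrial UMIs together, with log2 fold changes of 0.76 (SE 0.29) for Mt1 and 1.47 (SE 0.37) for Mt2. The class median of the mitochondrial share was 1.40% to 1.45% after sevoflurane. The 2 limits were not tried apart. Mt1 was also not called without oxygen replicate 1 (0.86).

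All 9 endothelial markers were detected in this class, with a summed level of 10998 to 12974 CPM after sevoflurane and 12042 to 13299 CPM after oxygen. Summed levels of markers of neighbouring cells were also measured there. The 11 astrocyte markers summed to 1537 to 1841 CPM after sevoflurane and 2090 to 2151 CPM after oxygen. Of them, 3 were lower in all 3 sevoflurane libraries, against 10% of all genes tested in this class. The 8 pericyte markers summed to 4397 to 4849 CPM after sevoflurane and 4636 to 6512 CPM after oxygen. The 8 choroid plexus markers summed to 21.1 to 27.0 CPM after sevoflurane and 102 to 738 CPM after oxygen, with 1 marker at 0 in all libraries. The part of these in the metallothionein values was not tested.

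Astrocyte-like nuclei, the class with the highest Mt2 level after oxygen, held 234, 241 and 206 CPM of Mt2 after sevoflurane against 161, 114 and 193 CPM after oxygen. The groups did not overlap, the log2 fold change was 0.54 (SE 0.16), and the gene was not called. Mt1 overlapped between the groups at 562, 510 and 440 CPM after sevoflurane and 386, 295 and 471 CPM after oxygen (log2 fold change 0.39, SE 0.16). Mt3 was close to equal, at 0.06 (SE 0.13). Ependymal-like nuclei, from the lining of the ventricles, had the highest Mt1 and Mt3 levels after oxygen, with log2 fold changes of 0.30 for Mt1, 0.18 for Mt2 and 0.02 for Mt3 and overlapping groups for each.

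Over the 12 classes, 78 of the 84 pairs of member and class passed the filter on low counts. Of these 78, 6 were called, all higher after sevoflurane, against 1.74% of all gene and class pairs called in either direction and 0.534% called higher. Since the members were chosen on this contrast, nothing is read from that count. Libraries did not overlap, with sevoflurane above, in 17 of the 78, against 9.1% of all pairs. Mt1 had a positive log2 fold change in 12 of 12 classes and Mt3 in 12 of 12, whereas Slc30a3 had one in 3 of 10.

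The calls outside the endothelial-like class were Mt1 and Mt2 in oligodendrocyte-like nuclei (0.891% of genes called) and Mt2 and Slc30a1 in dentate granule-like nuclei (4.64% of genes called). In oligodendrocyte-like nuclei, Mt2 measured 60.3, 72.8 and 56.7 CPM after sevoflurane against 40.7, 29.5 and 37.7 CPM after oxygen, a log2 fold change of 0.82 (SE 0.16). Mt1 there had a log2 fold change of 0.60 (SE 0.13). Both stood close to the few-UMI level, at 1.14 times for Mt1 and 1.09 times for Mt2 after sevoflurane and 1.07 and 0.910 times after oxygen. The few-UMI cluster itself had log2 fold changes of 0.42 (SE 0.17) for Mt1 and 0.49 (SE 0.17) for Mt2. Leaving out 1 library at a time, Mt1 kept its call in 1 of 6 runs and Mt2 in 3 of 6.

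In dentate granule-like nuclei, Mt2 measured 18.6, 20.7 and 16.3 CPM after sevoflurane against 14.5, 10.2 and 11.8 CPM after oxygen, also near the few-UMI level, and kept its call in 2 of 6 runs that left out a library. Genes spanning under 2000 bp, as all 3 metallothioneins do, had a median log2 fold change of 0.14 in dentate granule-like and 0.14 in oligodendrocyte-like nuclei, against 0.02 and 0.01 for all genes tested. With a correction for span, the log2 fold change became 0.42 for Mt1 and 0.62 for Mt2 in oligodendrocyte-like nuclei, and 0.39 for Mt2 in dentate granule-like nuclei, and none of them was called. Slc30a1, which spans 6481 bp, had 0.51 in dentate granule-like nuclei with that correction and was not called either.

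**Figure D3:**
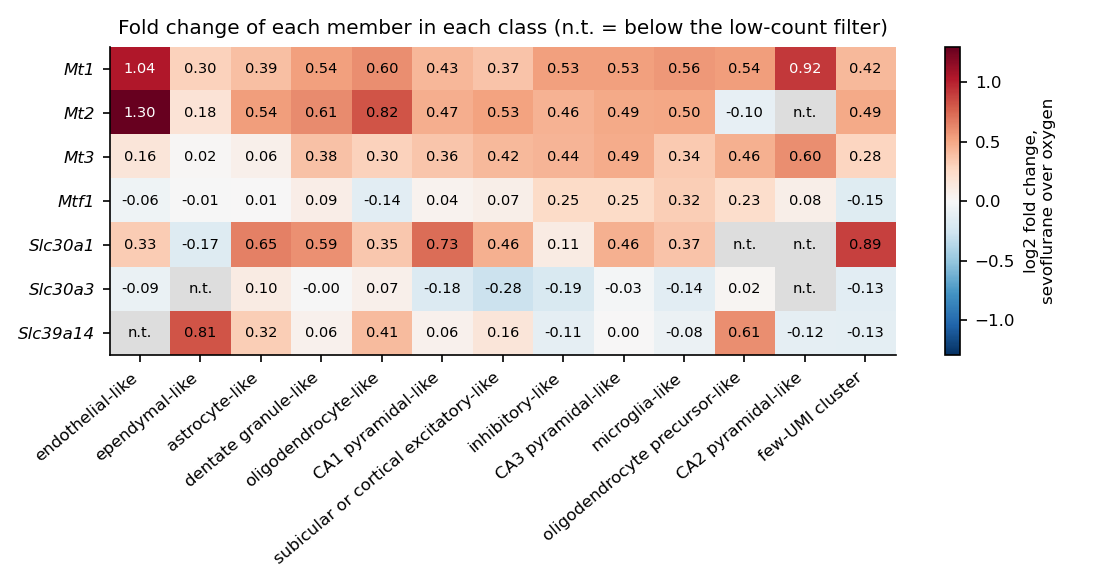
Log2 fold change of sevoflurane over oxygen for each member (rows) in each class and in the few-UMI cluster (columns), from edgeR on counts summed per library. Grey cells marked n.t. did not pass the low-count filter; Mt1 at 1.04 and Mt2 at 1.30 in endothelial-like nuclei are the largest values shown.

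Mtf1, the zinc sensor, differed little. Its levels in CPM after oxygen were highest in ependymal-like nuclei at 57.1 CPM and oligodendrocyte-like nuclei at 56.3 CPM, which overlapped, and lay between 24.1 and 33.8 CPM in the other 10 classes. Per nucleus the order was another, with 0.494 UMIs in CA2 pyramidal-like and 0.359 in CA3 pyramidal-like nuclei first after oxygen, against 0.132 in oligodendrocyte-like nuclei. Log2 fold changes ran from -0.14 in oligodendrocyte-like to 0.32 in microglia-like nuclei, and none was called. In endothelial-like nuclei it measured 39.1, 19.2 and 38.8 CPM after sevoflurane and 32.5, 35.5 and 33.5 CPM after oxygen.

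Slc30a1 encodes ZnT1, which exports zinc across the plasma membrane and is an Mtf1 target. After oxygen it stood at 247 CPM in endothelial-like nuclei, with 26.1 CPM in ependymal-like nuclei next and no overlap between them. It was the member most concentrated in 1 class, at 20.5 to 70.2 times the few-UMI level per nucleus. In endothelial-like nuclei it measured 284, 313 and 329 CPM after sevoflurane against 247, 284 and 211 CPM after oxygen, a log2 fold change of 0.33 (SE 0.17) that was not called. The lowest sevoflurane library and the highest oxygen library were practically level.

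In dentate granule-like nuclei Slc30a1 measured 10.8, 13.7 and 13.9 CPM after sevoflurane against 9.39, 8.12 and 7.99 CPM after oxygen. The groups did not overlap and the log2 fold change was 0.59 (SE 0.14), but it was not called with DESeq2 or without any one of 5 of the 6 libraries. The largest fold change of Slc30a1 among the classes was 0.73 (SE 0.19) in CA1 pyramidal-like nuclei, at 7.62, 10.2 and 8.94 CPM after sevoflurane against 4.75, 6.42 and 4.74 CPM after oxygen, and was not called. In the few-UMI cluster it was 0.89 (SE 0.30).

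Slc30a3 encodes ZnT3, which loads zinc into synaptic vesicles. It was highest in dentate granule-like nuclei, at 65.5, 74.2 and 69.0 CPM after sevoflurane and 66.4, 74.9 and 67.8 CPM after oxygen, a log2 fold change that rounded to 0 (SE 0.08). The next class after oxygen was microglia-like nuclei at 40.8 CPM, below the few-UMI cluster, where the lowest oxygen library had 73.1 CPM. By this measure dentate granule-like nuclei did not stand clear of the few-UMI cluster either, at 66.4 to 74.9 CPM after oxygen. Per nucleus, dentate granule-like nuclei were again first after oxygen at 0.582 UMIs, with CA1 pyramidal-like nuclei next at 0.286 and microglia-like nuclei at 0.082. CA3 pyramidal-like nuclei held 18.7 CPM and CA1 pyramidal-like nuclei 25.4 CPM after oxygen. No class had a called difference.

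Slc39a14 encodes ZIP14, which imports zinc, iron and manganese. In CPM it was highest in astrocyte-like nuclei, at 53.7, 79.5 and 106 CPM after sevoflurane and 62.9, 68.1 and 65.5 CPM after oxygen, and sevoflurane replicate 1 was the lowest of the 6. Per nucleus it was highest in CA2 and CA3 pyramidal-like nuclei, with 0.820 and 0.640 UMIs after oxygen, against 0.197 in astrocyte-like nuclei. Libraries did not overlap in oligodendrocyte-like, oligodendrocyte precursor-like and ependymal-like nuclei, where the log2 fold changes were 0.41, 0.61 and 0.81, and none was called. In endothelial-like nuclei it held 4 to 14 counts per library and did not pass the filter.

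The other zinc transporters were taken as a list of 24 genes of the Slc30 and Slc39 families, 3 of the members included. Its p-values are descriptions, since the lists were chosen with earlier results of these data known. In dentate granule-like nuclei 20 passed the filter, 1 was called higher (Slc30a1) and 0 lower, against 4.64% of all genes tested there. In endothelial-like nuclei, 16 passed the filter, 0 were called higher and 1 was called lower, against 3.1% of all genes tested there. That gene was Slc39a10, which encodes the zinc importer ZIP10 and is most abundant in endothelial-like nuclei. It measured 242, 317 and 338 CPM after sevoflurane against 696, 826 and 556 CPM after oxygen, with no overlap. It fell by 1.20 on the log2 scale (SE 0.19, edgeR adjusted p = 0.00105). It was called in 15 of 16 alternative settings, the exception being the stricter filter on nuclei, with log2 fold changes from -1.34 to -1.06.

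Further transporters, chosen for their levels after these were seen, had no called difference. Slc39a12, which encodes ZIP12, averaged 404 ± 34.6 CPM after sevoflurane and 500 ± 43.0 CPM after oxygen in astrocyte-like nuclei (SD, n = 3 each), with a log2 fold change of -0.30 and an edgeR adjusted p of 0.258. Slc39a8, which encodes ZIP8, averaged 45.2 ± 4.01 CPM after sevoflurane and 61.3 ± 13.8 CPM after oxygen in endothelial-like nuclei (SD, n = 3 each), with an edgeR adjusted p of 0.458. Slc30a10, which encodes a manganese exporter, averaged 55.0 ± 10.8 CPM after sevoflurane and 82.9 ± 15.7 CPM after oxygen there (SD, n = 3 each), with an edgeR adjusted p of 0.304. Mt4 had 4 counts in all.

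**Figure D4:**
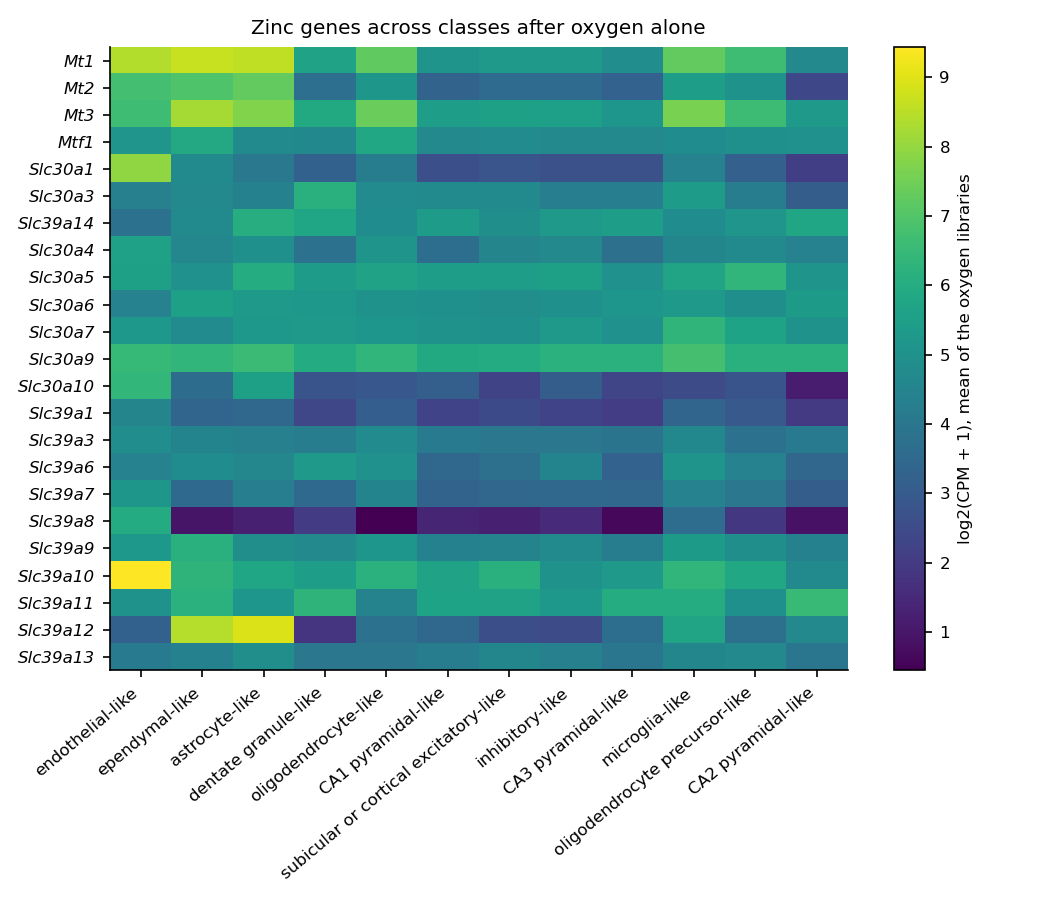
Mean level after oxygen alone of the metallothioneins, Mtf1 and the zinc transporters with at least 10 CPM in a class, as log2(CPM + 1), by class. Slc39a10, Slc30a1, Slc39a8 and Slc30a10 are highest in endothelial-like nuclei and Slc39a12 in astrocyte-like nuclei.

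Genes known to respond to other inducers of metallothioneins were examined as lists. These lists, too, were chosen with earlier results of these data known. Their p-values and called shares are therefore descriptions, and no inducer was tested. Of 18 glucocorticoid-responsive genes, 14 passed the filter in endothelial-like nuclei, where 1 was called higher and 0 lower, against 3.1% of all genes. It was Sgk1, a kinase induced by glucocorticoids, at 213 ± 55.7 CPM after sevoflurane and 91.6 ± 3.31 CPM after oxygen (SD, n = 3 each; log2 fold change 1.17, edgeR adjusted p = 0.00202). It was not called under the stricter filter on nuclei, where its log2 fold change was 0.59. In astrocyte-like nuclei 4 of the 18 were called higher and 0 lower, against 2.19% of all genes there. They were Map3k6, Pdk4, Arrdc2 and Ddit4, with log2 fold changes of 2.31, 1.38, 1.59 and 1.11. Ddit4 lost its call without oxygen replicate 2. In the other sets of nuclei with a call from this list, 1 gene each was called. Zbtb16, a transcription factor, fell by 0.42 on the log2 scale in dentate granule-like nuclei (edgeR adjusted p = 0.0257, 4.64% of genes called). Errfi1, a feedback inhibitor of EGF receptor signalling, rose by 0.41 in all nuclei (edgeR adjusted p = 0.0327, 1.98% of genes called) and by 0.67 in CA1 pyramidal-like nuclei (edgeR adjusted p = 0.00506, 2.01% of genes called). The clock gene Per1 rose by 0.59 in subicular or cortical excitatory-like nuclei (edgeR adjusted p = 0.0479, 1.44% of genes called) and by 0.77 in inhibitory-like nuclei (edgeR adjusted p = 0.0155, 1.56% of genes called). Ddit4, an inhibitor of mTORC1, rose by 1.66 in microglia-like nuclei (edgeR adjusted p = 0.0302, 0.519% of genes called). Of these 6 calls, Errfi1 in CA1 pyramidal-like nuclei was lost at resolution 2.0 alone, and the other 5 were each lost without any one of 3 to 5 libraries. The median over the list was 0.41 in astrocyte-like and 0.23 in endothelial-like nuclei, against 0.01 and 0.00 for all genes tested.

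Of 15 targets of the antioxidant factor NRF2, 9 passed the filter in endothelial-like nuclei, with 0 called higher and 2 lower. Of all genes tested there, 3.1% were called. Slc7a11, the cystine importer, fell by 1.45 on the log2 scale (edgeR adjusted p = 0.0273) and Abcc4, an efflux pump, fell by 0.86 (edgeR adjusted p = 0.0141). Slc7a11 lost its call without sevoflurane replicate 2 or without any 1 of the oxygen libraries. Abcc4 lost it under the stricter filter, in the larger cluster alone, and without sevoflurane replicate 2, oxygen replicate 1 or oxygen replicate 3. In dentate granule-like nuclei 1 of the 14 past the filter was called, against 4.64% of all genes there. It was the quinone reductase Nqo1, which rose by 1.15 on the log2 scale (edgeR adjusted p = 0.0407), at 4.29 ± 0.47 CPM after sevoflurane and 1.87 ± 0.76 CPM after oxygen (SD, n = 3 each). In astrocyte-like nuclei Slc7a11 fell by 0.89 (edgeR adjusted p = 0.0304, 2.19% of genes called). Me1, the malic enzyme, fell by 0.52 in CA1 pyramidal-like nuclei (edgeR adjusted p = 0.0435, 2.01% of genes called). In CA3 pyramidal-like nuclei Me1 fell by 0.41 (edgeR adjusted p = 0.0388, 1.06% of genes called). Each of these 4 calls was lost with the correction for span and without any one of at least 5 of the 6 libraries.

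Of 15 STAT3 and acute phase genes, 7 passed the filter in endothelial-like nuclei and 0 were called, and of 18 copper and iron genes 12 passed and 0 were called. Elsewhere, the interleukin-6 receptor Il6ra rose by 0.50 in dentate granule-like nuclei (edgeR adjusted p = 0.0242, 4.64% of genes called). Il6st, its signalling partner, fell by 0.93 in microglia-like nuclei (edgeR adjusted p = 0.0158, 0.519% of genes called). Il6ra lost its call without any one of 5 libraries, and Il6st lost its call without oxygen replicate 2 or 3.

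Genes whose levels followed those of the members over the 12 classes were found from Pearson correlations of log2(CPM + 1) after oxygen, over 14642 genes. These are descriptions, and the classes share libraries, depth and background RNA. Mt1 was most like Apoe at 0.994, Gstm1 at 0.990 and Mt2 at 0.990, followed by Nat8f1 and Igfbp2, and Mt2 was most like Mt1, Gja1, Apoe, Nudt9 and Igfbp2. Slc30a1 was most like the haemoglobin genes Hba-a2 at 0.990 and Hbb-bs at 0.987, with Cyb5r3 between them and Hba-a1 and Cdkn1a after. Mt3 was most like Chchd10 at 0.986, which is among the leading genes of the few-UMI cluster, and then Clu, Itm2c, Fabp5 and Uck1. Slc30a3 had lower values, with Kcng1 first at 0.885, then Smad3, Capn7, Rasl10a and Stag1. Mtf1 was most like Cldn14 at 0.951, then Slc13a1, Gm50323, Itgb4 and Kcnk5, and Slc39a14 was most like Gm14764 at 0.914, then Brwd3, Rsf1os1, Chchd3 and Hmgn3.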

How the data were processed

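Per the submitters' processing notes, the tools were fastp and Cell Ranger 7.1.0 and the build was mm10. The deposited values are raw counts (UMIs per gene and barcode), per the file headers; whether introns were counted is not given in the sources used here. Barcodes with at least 500 UMIs, 300 genes and at most 5% mitochondrial UMIs were kept (53287 of 53824), and Scrublet doublets over 0.303, a threshold common to all libraries because the automatic one failed in 1 of them, were removed (1395). A shared-neighbour graph (3000 variable genes, 40 components, 20 neighbours) was clustered with leidenalg 0.10.2 at resolution 1.0 into 53 clusters, and 35 were named from 23 marker lists. The details of the naming rule were set after clusters had been seen, and clusters with few UMIs for their libraries stayed unnamed.

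Counts were summed per library and class and compared with edgeR 4.0.16 (quasi-likelihood, TMM, filterByExpr, Benjamini-Hochberg within each class, called at an adjusted p under 0.05). CPM are on TMM-normalised totals. The SE is the fold change over the square root of F. On simulated endothelial-like counts, 79% of genes changed by a log2 of 1 and 100% of those changed by 2 were called. There were 13 false calls over 8270 genes tested. The changed genes were drawn from the more highly expressed genes only, so these rates do not cover weakly expressed members. Intervals of counts and shares cover counting error only. The members and gene lists were chosen with earlier results of these data known. Named were the members in every class, called genes of each list in any class, and the 5 genes most like each member. The rule also held up to 4 further list genes by smallest p in classes with a called member, which are not given in full. Slc39a12, Slc39a8 and Slc30a10 were chosen for their levels after these were seen. The comparison with the few-UMI cluster, the larger endothelial-like cluster alone, and the length of the promoter window were chosen after seeing the data. Alternatives are in the closing section.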

Additional observations from a re-analysis of the deposited data

How the results depend on the processing

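No fold change of a called pair changed sign under any alternative. The 6 member calls over the 12 classes were all kept with RLE factors, doublets kept and resolution 2.0. With DESeq2 the total was also 6, but Slc30a1 in dentate granule-like nuclei was not among them. The total was 4 with the stricter filter on nuclei and 14 without the low-count filter. It was 3 with the correction for gene span, where only Mt1 and Mt2 in endothelial-like nuclei remained of the 6. Leaving out a library gave 2 to 8 calls. The 2 calls among zinc transporters became 1 with DESeq2, 1 with the correction for span, 1 with the stricter filter and 4 without the low-count filter, and leaving out a library gave 1 to 2. The cause was not tested. Of 85 fold changes (78 pairs and all nuclei), 7 moved by more than the spread between libraries with the correction for span and 1 with doublets kept. With that correction and the replicate number as a block, 6 moved. So did 5 of 80 with the stricter filter and 1 of 4 with the larger endothelial-like cluster alone. The last was Mt2, at 0.99 against 1.30. In endothelial-like nuclei, Mt1 ranged from 0.70 to 1.22 and Mt2 from 0.99 to 1.47 over 16 settings. Without sevoflurane replicate 1, whose sex label did not match, they were 1.00 and 1.33, and both were called.

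Same-numbered libraries did not deviate together (correlations of -0.14 to 0.08), so no pairing by number was seen. With 3 libraries per group, this cannot exclude one. With the replicate number as a block, 3 member calls and 1 zinc transporter call were found. With the block and the correction for span together, there were 2 and 1.

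For 7 of 7 members the highest class did not change with doublets kept. It was the same for 5 with the stricter filter, for 6 at resolution 2.0 and, for shares of nuclei with a UMI, for 3 after thinning to 1000 UMIs. Of 35 most similar genes, 28 stayed with log2(CPM + 5). Endothelial-like sums of 302764 UMIs in the shallowest sevoflurane library limit what could be seen of weakly expressed members.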
